A study of Mus musculus with 14 samples.

Results

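Marrow cells collected after radioimmunotherapy directed at CD45 were compared with marrow cells collected after radioimmunotherapy with an IgG that has no cellular target. The comparison was defined by the treatment label alone: 2 CD45 RIT libraries and 3 IgG RIT libraries, together 5 of the 14 libraries of the series. All animals carried a Cre recombinase driven by the promoter of Cdh5, the gene of the endothelial adhesion protein VE-cadherin, and a Rosa26 allele that makes TdTomato once Cre has acted. Both groups received 20 µCi and were harvested on day 8. Cells were sorted as Lineage-, CD45- and TdTomato+, and RNA was read as full-length cDNA from a low-input SMART-Seq v4 kit. The reporter marks a cell for good once Cre has been active in it or in an ancestor, so TdTomato does not show that Cdh5 is being transcribed at the time of the sort. The other groups were 4 untreated libraries and 5 libraries from mice given 500 cGy of total body irradiation (TBI) from a caesium source. They entered the gene filter, the scaling and the estimate of the spread between libraries, and are otherwise given only as a background.

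CD45 is a surface phosphatase of nearly all nucleated blood cells, and an antibody to it carries a radionuclide to the marrow and other blood-forming tissue. An IgG with no target circulates and decays without being held there. The vessels and stromal cells of the marrow lie next to the CD45-bearing cells. Among these stromal cells, the reticular cells that make Cxcl12, the stem cell factor and adipocyte-type gene products hold and feed blood stem cells, osteoblasts lay down bone matrix, and endothelial cells line the sinusoids.

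Of 21509 genes tested with edgeR's quasi-likelihood test, 8108 (37.7%) passed a Benjamini-Hochberg adjusted p of 0.05, 4348 higher (20.2%) and 3760 lower (17.5%) in CD45 RIT. The median log2 fold change of all tested genes was -0.13, and it moved to -0.31 with no scaling factors. Reticular stroma, bone and matrix genes made up the most complete sets of higher genes. Genes of DNA replication, mitosis and the cytosolic ribosome made up the most complete sets of lower genes. Most markers of granulocytes were close to absent from both CD45 RIT libraries, and their lists already summed to far less after IgG RIT than in untreated libraries. Every count of list members called below is to be read against the 20.2% and 17.5% of all tested genes. Nothing in the labels says whether replicates came from separate animals, so p-values measure the spread between these libraries, which may be technical.

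The 5 libraries held between 21657745 and 26823379 counts. SMART-Seq has no molecular identifiers, so counts include amplification copies, and every floor given here covers counting error only. The CD45 RIT libraries held counts for fewer genes: 20994 genes in replicate 1 and 17700 in replicate 2, against 21660 to 22222 in the IgG RIT libraries. Of 8849 genes with at least 100 counts in all 3 IgG RIT libraries, 290 (3.28%) were at or under 3 counts in CD45 RIT replicate 1 and 1693 (19.1%) in replicate 2, whereas no untreated or TBI library had more than 16 (0.181%). Only 183 of these genes were at or under 3 counts in both. Across genes, log2 CPM (counts scaled by library size) of the 2 CD45 RIT libraries correlated at 0.673 and those of the IgG RIT libraries at 0.917 to 0.922, as a description over genes of libraries that share amplification and depth. CD45 RIT replicate 1 correlated more closely with every library of the other groups (0.6839 to 0.7195) than with replicate 2. Replicate 2 correlated with the other groups at 0.5319 to 0.6045. Each value below is therefore given for both CD45 RIT libraries in turn, replicate 1 before replicate 2. The part of library complexity in the results was not tested. Among the other libraries, TBI replicate 6 stood apart from its group, with an erythroid list sum of 219120 CPM where the other TBI libraries lay at 45238 to 69298 CPM; without it 4396 genes were higher and 3813 lower.

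How many genes were called depended on which libraries were fitted and on how they were weighted. With only the 5 RIT libraries in the fit, 17233 genes were tested and 2217 called, 1212 higher and 1005 lower, of which 2204 were among the 8108 in the same direction. With limma voom and quality weights, 3064 were called, 2312 higher and 752 lower. The weights were 0.121 and 0.174 for the CD45 RIT libraries, the lowest of all 14, and 1.31 to 1.57 for the IgG RIT libraries. The CD45 RIT libraries thus varied more than the shared spread of the main fit assumes. Groups did not overlap, in CPM on the scaled library size, for 3747 of the 4348 higher genes and 3548 of the 3760 lower genes, where 21.7% and 29.6% of all tested genes did not overlap in those directions. Neither CD45 RIT library exceeded 3 counts for 1522 of the lower genes (40.5%), and no IgG RIT library did for 650 of the higher genes (14.9%).

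**Figure D1:**
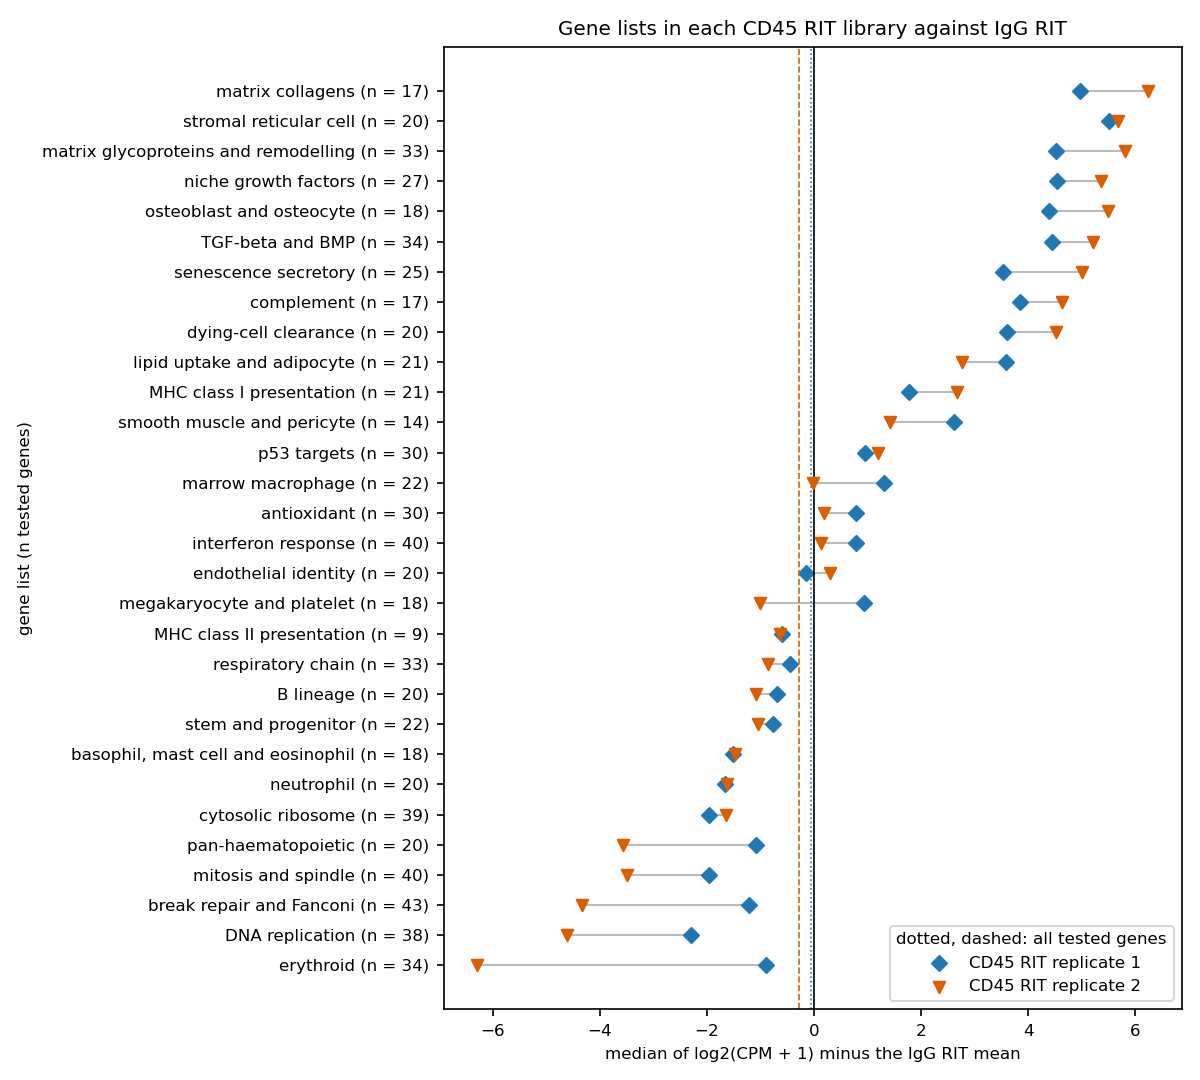
Median over the tested genes of each of 30 gene lists of log2(CPM + 1) in one CD45 RIT library minus the mean of the 3 IgG RIT libraries, with diamonds for replicate 1 and triangles for replicate 2; the dotted and dashed lines are the medians of all tested genes in the same libraries (-0.05 and -0.29). Lists of matrix, stromal and bone genes lie at the top in both libraries, and the erythroid list is the one whose 2 libraries lie farthest apart (-0.90 and -6.28).

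The labelled cell type was checked first. Cdh5 had 0 counts in all 5 libraries, and of 26 endothelial genes 20 were tested. Of these, 5 were higher and 3 lower, shares near the 20.2% and 17.5% of all tested genes. The median log2 fold change was 0.77. The median had opposite signs in the 2 libraries when each was set against the IgG RIT mean (-0.15 and 0.30 on the log2(CPM + 1) scale). Pecam1, the junction protein CD31, had 99, 72 and 171 counts in the IgG RIT libraries and 6 and 4 in the CD45 RIT libraries, and was called lower (log2 fold change -4.44, SE 0.92, edgeR adjusted p 0.00286). The Pecam1 call was lost with quality weights. Kdr, the main VEGF receptor, had 1, 0 and 15 counts against 1 and 2390, and Flt4, the receptor of lymphatic and sinusoidal endothelium, 2, 1 and 0 against 0 and 1306. Both receptors were called higher, on replicate 2 alone: in replicate 1 they were at 1 and 0 counts. Plvap, a protein of fenestrated endothelium, lay above the IgG RIT libraries in both (26, 79 and 61 against 223 and 2561, log2 fold change 4.57), as did the sinusoidal scavenger receptor gene Stab1 (241, 248 and 201 against 341 and 1530, 1.94). Without replicate 2 both calls were lost (log2 fold change 2.00, adjusted p 0.0682 for Plvap and 0.53, adjusted p 0.229 for Stab1), as were all 5 higher calls of the list, and none of the 5 stayed with the 5 RIT libraries alone. Vwf, the von Willebrand factor gene that endothelium and megakaryocytes share, had the highest level of the list in IgG RIT and was not called (888, 757 and 642 counts against 555 and 0, adjusted p 0.473). Tie1, an endothelial receptor, had 14, 2 and 76 counts against 0 and 0, at least 9.99-fold lower on the group means (edgeR adjusted p 0.0454). IgG RIT replicate 2 was itself under the floor of 3 counts. The Tie1 call was lost in 8 of 15 other settings, among them the fits without IgG RIT replicate 1 or replicate 3 and with the 5 RIT libraries alone. The list summed, on total counts, to 89.9, 76.4 and 99.8 CPM after IgG RIT, to 103 and 386 CPM after CD45 RIT and to between 269.9 and 338 CPM in untreated libraries. CD45 RIT replicate 2 was thus above every untreated library in this sum, while Cdh5, Tek and Stab2 were at 0 in all 5 libraries.

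Genes of Cxcl12-rich reticular stroma were higher in both CD45 RIT libraries. Of 20 such genes tested, 18 were higher and 0 lower (median log2 fold change 5.66, against -0.13 for all genes), and the medians of the 2 libraries were close (5.51 and 5.67). Cxcl12 (ENSMUSG00000061353.11, GRCm38 chromosome 6, 117168535 to 117181367), the chemokine that retains blood stem cells, had 4149, 3771 and 11543 counts in the IgG RIT libraries and 407745 and 558158 in the CD45 RIT libraries. Its mean was 345 ± 228 CPM (SD, n = 3) after IgG RIT and 25859 ± 1409 CPM (SD, n = 2) after CD45 RIT, and untreated libraries lay at 694 to 1639 CPM. The log2 fold change was 6.23 (SE 0.78, adjusted p 0.000103). No CD45 RIT library overlapped the IgG RIT or the untreated range.

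Vcam1, an adhesion molecule of stroma and endothelium, had 315, 390 and 1015 counts against 57726 and 59214, and was higher by 6.71 in log2 (SE 0.90, adjusted p 0.000157). Pdgfra, a receptor that marks mesenchymal cells, had 47, 4 and 56 against 2492 and 6785 and was higher by 6.93 (SE 0.95, adjusted p 0.000186). Csf1, the macrophage growth factor, had 245, 120 and 532 against 15758 and 17133 and was higher by 5.80 (SE 0.54, adjusted p 1.5e-05). Kitl and Lepr, the stem cell factor and the leptin receptor, were looked at after their values were seen; Kitl had 66, 143 and 408 counts against 4052 and 6397 and Lepr 568, 844 and 817 against 27136 and 38003. Among genes of the list that the fit did not call were Ednra and Runx1t1. IgG RIT replicate 3 was the highest of its group for Cxcl12, Vcam1 and Csf1, and still lay far under both CD45 RIT libraries. All 18 genes stayed called when CD45 RIT replicate 1 or replicate 2 was left out, 17 when only the 5 RIT libraries were fitted and 17 with quality weights. The list summed to 436, 417 and 1009.7 CPM after IgG RIT, to 38827 and 42461 CPM after CD45 RIT and to between 1871 and 3519.6 CPM in untreated libraries. Bulk RNA does not tell more stromal cells in the sort from more RNA per cell, here or in any result below.

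Adipocyte-type genes were higher too. Of 21 tested genes of lipid uptake and adipocytes, 16 were higher and 1 lower (median 5.09). On the log2(CPM + 1) scale the medians of the 2 libraries were smaller, 3.58 and 2.77. Fabp4 (ENSMUSG00000062515.3, chromosome 3, 10204088 to 10208576), a fatty acid carrier of adipocytes and capillary endothelium, had 19, 14 and 25 counts in IgG RIT and 11501 and 16618 in CD45 RIT libraries, with means of 1.04 ± 0.313 CPM (SD, n = 3) and 750.4 ± 69.5 CPM (SD, n = 2). This log2 difference of 9.49 (SE 1.17, adjusted p 9.15e-05) was the largest among called genes with a mean of at least 3 log2 CPM over the 5 libraries. Adiponectin (Adipoq) had 698, 1232 and 861 counts against 70588 and 63448 (6.23, SE 0.78, adjusted p 9.85e-05), and the lipoprotein gene Apoe 2473, 2151 and 1357 against 75077 and 108423 (5.51, SE 0.50, adjusted p 1.31e-05). Plin1, which coats the lipid droplets of mature adipocytes, had 1, 0 and 4 against 722 and 91, a much lower level than Adipoq. The fatty acid transporter Cd36 did not differ beyond the spread (6142, 5624 and 5099 against 4998 and 2511, adjusted p 0.6).

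Bone-forming genes were higher in both libraries and more so in replicate 2. Of 18 osteoblast and osteocyte genes tested, 16 were higher and 0 lower (median 4.86), and all 18 lay without overlap above the IgG RIT libraries. Osteopontin (Spp1) had 6064, 9341 and 12697 counts against 211945 and 648259, higher by 5.48 in log2 (SE 0.76, adjusted p 0.000205). Bone sialoprotein (Ibsp) had 1928, 924 and 4105 against 32497 and 172280, and the transcription factor gene Dlx5 46, 6 and 24 against 985 and 4736. Phex, an osteocyte peptidase that limits the phosphate-wasting hormone Fgf23, had 19, 3 and 22 against 972 and 1648. The 16 calls went to 15 without CD45 RIT replicate 1, 14 without replicate 2 and 10 with the 5 RIT libraries alone. Smooth muscle and pericyte genes were less complete: 8 of 14 were higher and 0 lower. The medians of the 2 libraries were 2.61 and 1.42 on the log2(CPM + 1) scale. Myl9, a smooth muscle light chain, had 200, 109 and 337 against 4700 and 5698, but Acta2 and Rgs5, which define these cells, were at 0 in all IgG RIT libraries and in CD45 RIT replicate 2, with 79 and 89 counts in replicate 1. In the fit with the 5 RIT libraries alone 1 of the 8 remained.

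**Figure D2:**
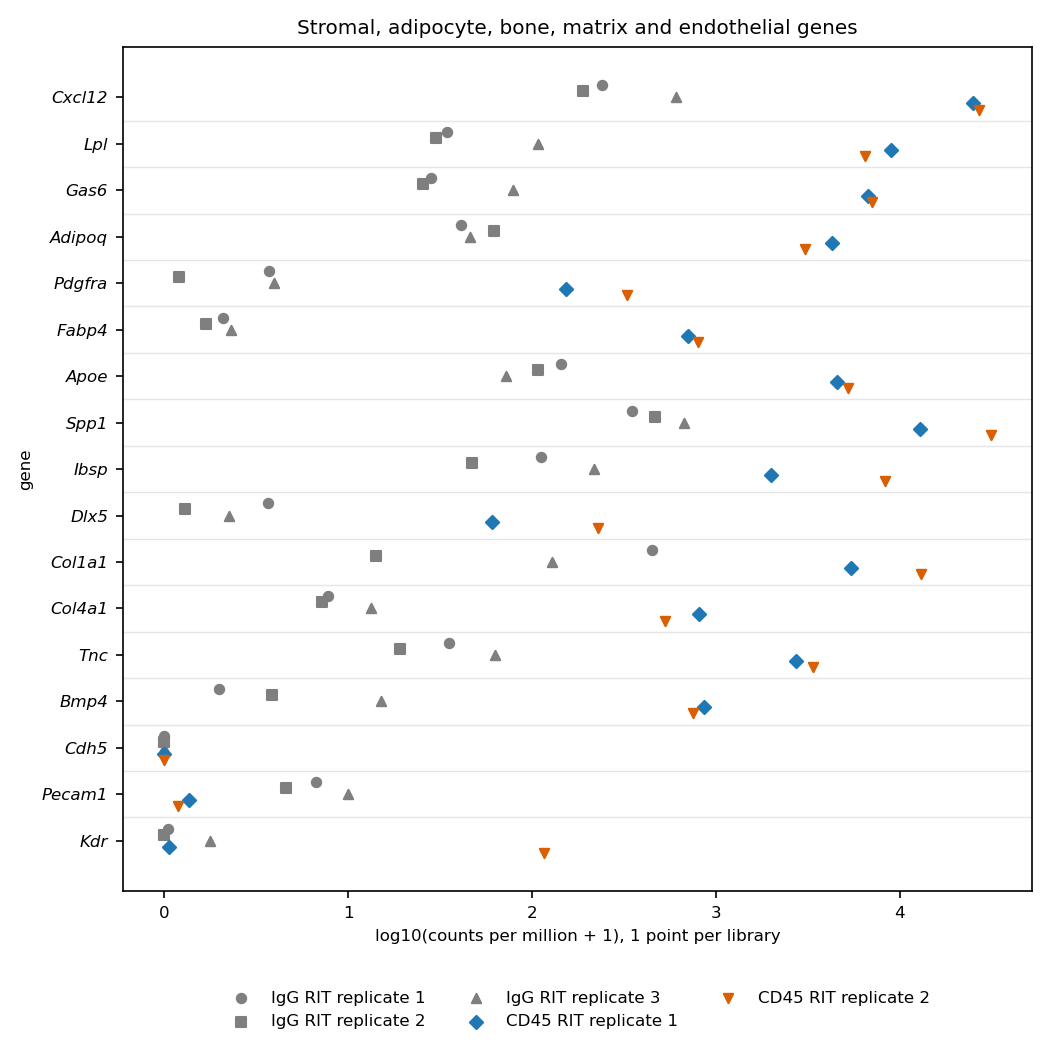
Level of 17 genes in each of the 5 RIT libraries, as log10(CPM + 1), with grey points for IgG RIT and coloured points for CD45 RIT. The 14 upper genes lie higher in both CD45 RIT libraries than in any IgG RIT library, Cdh5 is at 0 throughout, Pecam1 is lower in both and Kdr is high in replicate 2 alone.

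Extracellular matrix genes were the only large lists in which each tested member was called. All 17 tested fibril and basement membrane collagens were higher (median 5.70), and so were all 33 tested matrix glycoproteins and remodelling genes (median 5.40). Col1a1, a chain of bone and scar collagen, had 7726, 265 and 2433 counts against 89148 and 269826 (5.55, SE 1.05, adjusted p 0.00161). Its IgG RIT libraries lay far apart from each other. Col4a1, a chain of basement membranes, was steadier, with 117, 125 and 235 against 13235 and 11041 (6.31, SE 0.56, adjusted p 1.12e-05). Tenascin C (Tnc) had 591, 366 and 1174 against 44503 and 69795 (6.32, SE 0.55, adjusted p 9.4e-06), the collagen chaperone gene Serpinh1 642, 467 and 1366 against 28657 and 44472, and the collagenase gene Mmp13 782, 557 and 2420 against 20257 and 65064. Some calls rested on a single CD45 RIT library: Vcan had 0 counts in 4 of the 5 libraries and 1146 in replicate 2, and Col4a5 0 in 4 and 288 in replicate 1. With the 5 RIT libraries alone, 7 of the 17 collagens and 19 of the 33 other matrix genes stayed called.

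Secreted signals and their receptors were higher as well. Of 27 tested growth factors of the blood-forming niche 19 were higher and 0 lower (median 5.59), and of 34 TGF-beta and BMP pathway genes 28 were higher and 0 lower (median 5.09). Among ligands, Bmp4 had 17, 58 and 267 counts against 14162 and 15686 (7.08, SE 1.10, adjusted p 0.000426), Bmp2 1, 6 and 49 against 2301 and 2642 (7.09, SE 2.05, adjusted p 0.0174) and Tgfb3 0, 51 and 1 against 765 and 3527 (6.95, SE 1.51, adjusted p 0.00377). The ligand gene Inhba was carried by replicate 2 (0, 1 and 0 against 18 and 977). Among receptors, Bmpr1a had 5, 5 and 13 against 1443 and 1745 (7.70, SE 1.28, adjusted p 0.000678). Among extracellular binders, follistatin (Fst), which holds activin, had 68, 48 and 232 against 8417 and 15975, and Ltbp2, a matrix protein of the latent TGF-beta binding family, 46, 107 and 361 against 15863 and 11542. Id3, a transcriptional target of BMP signalling, had 295, 199 and 589 against 13995 and 16720 (5.42, SE 0.56, adjusted p 2.98e-05). For these members the 2 CD45 RIT libraries differed far less from each other than from any IgG RIT library, apart from Inhba and Tgfb3. With the 5 RIT libraries alone 14 of the 19 niche factors and 11 of the 28 pathway genes stayed called.

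Genes of dying-cell uptake and of complement were higher as well. Of 20 clearance genes 16 were higher and 0 lower (median 4.32). The bridging protein gene Mfge8, whose product links dying cells to integrins, had 327, 188 and 229 counts against 7584 and 15794 (5.51, SE 0.38, adjusted p 2.13e-06), the uptake receptor gene Lrp1 221, 21 and 263 against 7371 and 12363, and annexin A1 (Anxa1) 572, 969 and 882 against 9549 and 19924. Mertk, a receptor of macrophages for Gas6-coated cells, had 3, 0 and 0 against 282 and 0 and was called on replicate 1 alone. Of 17 complement genes 11 were higher and 1 lower (median 4.98). C2 had 8, 6 and 3 against 1562 and 920, the C1 inhibitor gene Serping1 1175, 987 and 1777 against 41005 and 71885, and C4b, which has a near-identical copy, 652, 504 and 704 against 9343 and 17277. Of the 11 higher complement calls, 10 stayed with the 5 RIT libraries alone and in every other setting tried. Macrophage markers were given beside these lists. Of 22 tested, 9 were higher and 0 lower, and the sum lay between 2479 and 2775 CPM after IgG RIT and at 5535 and 4469.7 CPM after CD45 RIT. Vcam1, given above among the stromal genes and higher by 6.71 in log2, is also on this list. It enters these sums, which were not taken without it, so they do not show more macrophage RNA. The defining gene Adgre1 was at 0 in all 5 libraries, and Csf1r had 220, 83 and 73 counts against 43 and 60. The part of macrophages in the clearance and complement results was not tested.

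Genes of the p53 response and of the senescence secretory programme were split. Of 30 p53 targets, 14 were higher, 2 lower and 14 not called (median 1.41). Cdkn1a, the cell cycle inhibitor p21, had 781, 835 and 596 counts against 9030 and 19439 (4.24, SE 0.52, adjusted p 8.6e-05). Ccng1 had 788, 677 and 799 against 3752 and 5254 (2.57, SE 0.25, adjusted p 1.63e-05), and Mdm2, which degrades p53, 1400, 1311 and 1260 against 2333 and 3729 (1.18, SE 0.23, adjusted p 0.00187). The death receptor gene Fas had 23, 6 and 0 against 729 and 1561 and a log2 fold change of 6.78. Rps27l and Btg2, which are p53 targets at high level in these cells, were not called: Rps27l had 4318, 5550 and 4377 against 3316 and 5413, and Btg2 17656, 13276 and 15170 against 10376 and 3067 (-1.08, adjusted p 0.18). Fitting the 5 RIT libraries alone left 4 of the 14 higher calls.

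Of 25 tested genes of the senescence secretory list 17 were higher and 1 lower (median 5.36). On the log2(CPM + 1) scale the medians of the 2 libraries were 3.53 and 5.01. The neutrophil-attracting chemokine gene Cxcl5 had 0 counts in all IgG RIT libraries and 257 and 1809 in CD45 RIT libraries, at least 320.4-fold higher against a floor of 3 counts per IgG RIT library (adjusted p 0.00144). Cxcl1 was likewise at 0 in IgG RIT and had 150 and 1392 counts, at least 237-fold higher (adjusted p 0.000939). Cdkn2b, a CDK4 inhibitor, had 0, 0 and 1 against 122 and 1510. The insulin-like growth factor binding protein genes Igfbp4 (672, 896 and 2457 against 85806 and 143058, 6.42, SE 0.56, adjusted p 9.53e-06) and Igfbp7 (560, 627 and 687 against 24036 and 32189, 5.50, SE 0.81, adjusted p 0.000311) were at high level. Il6 and Cdkn2a, which define the programme in many cell types, were not among the higher genes: Il6 had at most 1 count in any of the 5 libraries, and Cdkn2a had 0. Csf1 stands on both this list and the stromal one. With the 5 RIT libraries alone 7 of the 17 higher calls stayed, Cxcl5 and Cxcl1 not among them, and 9 stayed with the replicate number as a block.

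Genes of MHC class I presentation were higher than after IgG RIT, and those of class II were not. Of 21 class I genes 16 were higher and 0 lower (median 2.25). Of these 16, 7 stayed called with the 5 RIT libraries alone and 10 with quality weights. The list summed to between 2608 and 3312 CPM after IgG RIT and to 7997 and 13108 CPM after CD45 RIT. Untreated libraries lay at 6923.5 to 8945.9 CPM, so IgG RIT was under them, CD45 RIT replicate 1 within their range and replicate 2 above it. H2-K1 had 3724, 4334 and 5557 counts against 32058 and 68342 (3.44, SE 0.36, adjusted p 3.08e-05), H2-D1 13544, 20364 and 20540 against 78681 and 132075 (2.54, SE 0.22, adjusted p 9.53e-06), and the light chain gene B2m 10998, 14877 and 16640 against 31625 and 59650 (1.68, SE 0.25, adjusted p 0.000276). Nlrc5, the transactivator of class I genes, had 69, 59 and 182 against 1555 and 1222 (3.80, SE 0.64, adjusted p 0.000695). H2 genes are near-identical in parts, so reads may have been split between them. Of 9 class II genes 0 were higher and 1 lower; H2-Ab1 had 181, 155 and 363 against 168 and 673 (adjusted p 0.291). The difference between the class I and class II lists was not tested.

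Interferon-stimulated genes divided in a way that the list median (0.58) hid. Of 40 tested, 16 were higher, 3 lower and 21 not called. With the 5 RIT libraries alone 8 of the 16 and 1 of the 3 stayed, and with quality weights 11 and 0. Ifitm3, which blocks virus entry, had 1560, 3454 and 2765 counts against 9511 and 17007 (2.36, SE 0.31, adjusted p 0.000129), and Ifit3 0, 39 and 52 against 1433 and 2302 (5.98, SE 1.61, adjusted p 0.012). Gbp2 and Bst2, looked at after their values were seen, had 18, 10 and 87 against 847 and 2954 and 195, 604 and 465 against 4372 and 4178. The members at the highest level in IgG RIT were not called: Rsad2 had 35613, 24219 and 23619 against 31690 and 15560 (adjusted p 0.887), Isg20 19870, 20003 and 19759 against 18795 and 4175 (adjusted p 0.469), and the ubiquitin-like modifier gene Isg15 5941, 7292 and 6050 against 8524 and 4555 (adjusted p 0.922). In each of these 3 the groups overlapped, with CD45 RIT replicate 2 the lowest library. These genes were already high in IgG RIT, where untreated libraries lay at 9.76 to 21.5 CPM for Isg15 and IgG RIT libraries at 342 ± 22.7 CPM (SD, n = 3). Oas2 was at 0 in both CD45 RIT libraries and at least 14.4-fold lower (adjusted p 0.0055). Oas and Ifit genes have close copies, and read assignment among them is uncertain.

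The promoters of higher and uncalled interferon genes were set side by side for the letters GAAA repeated after 2 bases of any kind, on either strand, the core of the element through which interferon acts. Of the 250 bases before a start site in RefSeq (GRCm38.p6), 978 of 32851 promoters (2.98%) held it. It was found for 7 of the 11 higher genes with a promoter sequence and for 5 of the 16 uncalled genes, in 7 of 13 and 5 of 20 promoters. Each line gives 80 of these 250 bases, around the match, 5′ to 3′ on the gene's strand, with the match in capitals, for 3 higher genes and 2 genes that were not called.
Ifit3 (chr19:34583338-34583417, + strand): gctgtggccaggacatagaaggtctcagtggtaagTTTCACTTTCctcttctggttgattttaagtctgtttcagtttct
Gbp2 (chr3:142620569-142620648, + strand): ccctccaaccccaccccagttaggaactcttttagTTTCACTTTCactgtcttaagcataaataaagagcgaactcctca
Bst2 (chr8:71537558-71537637, - strand): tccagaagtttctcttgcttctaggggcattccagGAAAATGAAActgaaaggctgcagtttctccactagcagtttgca
Isg15 (chr4:156200852-156200931, - strand): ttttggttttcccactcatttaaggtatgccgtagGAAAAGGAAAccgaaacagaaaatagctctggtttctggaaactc
Rsad2 (chr12:26456528-26456607, - strand): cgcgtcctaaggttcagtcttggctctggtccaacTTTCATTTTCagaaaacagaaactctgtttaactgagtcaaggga
The match stood in both kinds of promoter, as a description of letters and not of binding.

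Among lists of blood cells other than red cells, the pan-haematopoietic, granulocyte and B lineage lists held more lower than higher genes, and many members were not called. Of 20 pan-haematopoietic genes 1 was higher and 7 lower (median -1.85). The integrin gene Itgb2, common to white blood cells, had 154, 352 and 183 counts in IgG RIT and 0 in both CD45 RIT libraries, at least 73.5-fold lower (adjusted p 2.4e-05), and Hcls1 had 153, 271 and 173 against 0 and 0, at least 64.1-fold lower (adjusted p 2.75e-05). Ptprc, the gene of CD45 itself, was not called: it had 78, 286 and 238 against 1 and 662, so that 1 CD45 RIT library was nearly without it and the other was the highest of the 5. Runx1, which stroma and blood progenitors share, was higher (699, 781 and 592 against 4413 and 1594, 2.23). The list summed to between 923 and 1066 CPM after IgG RIT, to 1154 and 418 CPM after CD45 RIT, and to between 4525 and 5086.5 CPM in untreated libraries. Of the 7 lower calls, 4 stayed with the 5 RIT libraries alone and 2 with quality weights, Itgb2 and Hcls1 not among these 2. The Runx1 call was lost in both fits.

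Of 22 stem and progenitor genes 5 were higher and 7 lower, where 20.2% and 17.5% of all tested genes were. The share of higher genes was thus near that of all tested genes. Cd34 had 210, 161 and 214 counts against 0 and 0, at least 64.0-fold lower (adjusted p 3.25e-05), and Gata2 131, 115 and 213 against 0 and 0, at least 49.9-fold lower (adjusted p 7.06e-05). Tal1 was lower (log2 fold change -2.31, SE 0.43, adjusted p 0.00139), with 2730, 3826 and 3993 against 707 and 662. Among the higher members, Hoxa9 had 68, 41 and 65 against 769 and 1981 (4.50, SE 0.48, adjusted p 3.22e-05). The receptor gene Kit was at 0 in replicate 1 and the highest of the 5 libraries in replicate 2 (197, 190 and 329 against 0 and 753, adjusted p 0.773). Of the 7 lower calls 4 stayed with the 5 RIT libraries alone, and 1 with quality weights, where Cd34 and Gata2 were lost.

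Granulocyte lists had the lowest medians of fitted log2 fold change among the 30 lists. Of 20 neutrophil genes 10 were lower and 0 higher (median -6.82, or -5.64 with genes at 0 counts set to their bound), and of 18 basophil, mast cell and eosinophil genes 11 were lower and 0 higher (median -8.52, or -5.85 with bounds). Many of their genes were at low level in IgG RIT, and on the log2(CPM + 1) scale the medians were smaller, -1.67 and -1.63 in the 2 CD45 RIT libraries for neutrophil genes and -1.51 and -1.47 for the other list. Myeloperoxidase (Mpo; ENSMUSG00000009350.13, chromosome 11, 87793581 to 87804413) had 9501, 9720 and 13034 counts in IgG RIT and 1 and 4 in CD45 RIT libraries (-12.03, SE 1.34, adjusted p 4.47e-05). Elastase (Elane) had 1274, 1804 and 2332 against 1 and 0, a pooled ratio of 3569 (95% Poisson interval 641 to 140960.0). The histamine enzyme gene Hdc had 209, 128 and 267 against 0 and 0, at least 66.2-fold lower (adjusted p 0.000247). The neutrophil list summed to between 611 and 816 CPM after IgG RIT and to 5.53 CPM in replicate 1 and 183 CPM in replicate 2 of CD45 RIT. Most of the 183 CPM in replicate 2 was Mmp9, which had 4508 counts there and 3 in replicate 1. Untreated libraries lay at 10377 to 13058 CPM, far above IgG RIT. The other list summed to 38.1, 221 and 421 CPM after IgG RIT, to 0.214 and 28.5 CPM after CD45 RIT and to between 8491 and 11804 CPM in untreated libraries. None of the granulocyte calls in either list stayed with quality weights, and 4 of the 10 neutrophil and 2 of the 11 other calls stayed with the 5 RIT libraries alone. Without CD45 RIT replicate 2 all 10 neutrophil calls stayed and 4 of the 11 others.

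Of 20 B lineage genes 1 was higher and 6 lower (median -1.17). Pou2af1, a coactivator of immunoglobulin transcription, had 308, 365 and 848 counts against 0 and 0, at least 164-fold lower (adjusted p 0.000855), while Igll1 and Cd79a of the pre-B receptor kept counts in both libraries (764, 791 and 3092 against 1029 and 1013, and 614, 671 and 2036 against 542 and 510). Ebf1, a B lineage factor that reticular stroma also makes, was the higher one (279, 213 and 816 against 5374 and 7809). Quality weights kept neither the Ebf1 call nor any of the 6 lower calls, and the 5 RIT libraries alone kept 3 of the 6. Of 18 megakaryocyte and platelet genes 2 were higher and 2 lower. Itga2b, the platelet integrin, had 366, 418 and 558 against 1924 and 0 and was not called.

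The erythroid list was the one whose median differed most between the 2 CD45 RIT libraries. Of 34 tested, 0 were higher and 6 lower in the fit, a share of lower calls like that of all tested genes (17.5%). Without overlap, 27 of the 34 lay under the IgG RIT libraries, against 29.6% of all tested genes. In replicate 1 the median difference from the IgG RIT mean was -0.90 on the log2(CPM + 1) scale and the list summed to 211270 CPM, above the IgG RIT sums of 173560 to 183670. In replicate 2 the median was -6.28 and the sum 49982 CPM, above the untreated range of 19223 to 26597. The globin genes stood apart from the rest in replicate 2. The adult beta globin gene Hbb-bs had 1144508, 1241432 and 1163480 counts in IgG RIT and 1950119 and 480882 in CD45 RIT libraries, and Hba-a1 905292, 965100 and 1174956 against 1236598 and 492860; both have near-identical copies among which reads cannot be placed with certainty. Alas2, the first haem enzyme of red cells, kept 185418 and 46446 counts, against 116028, 99494 and 95002. The Rhesus protein gene Rhd, by contrast, had 67177, 72169 and 90354 against 18771 and 1, the transferrin receptor gene Tfrc 42292, 35372 and 33886 against 9387 and 1, and the erythroid factor gene Klf1 28269, 34891 and 33625 against 7580 and 0. Gata1 had 10434, 12117 and 11626 against 1107 and 0 and was lower (log2 fold change -4.17, SE 1.48, adjusted p 0.043, or 0.0501 without TBI replicate 6). Cpox, an enzyme of haem synthesis, was lower in both (46270, 49705 and 52786 against 15188 and 1670, -2.39, SE 0.73, adjusted p 0.022). None of the 6 lower calls stayed with the 5 RIT libraries alone. The low number of genes detected in replicate 2 moved with these values, and its part in them was not tested.

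**Figure D3:**
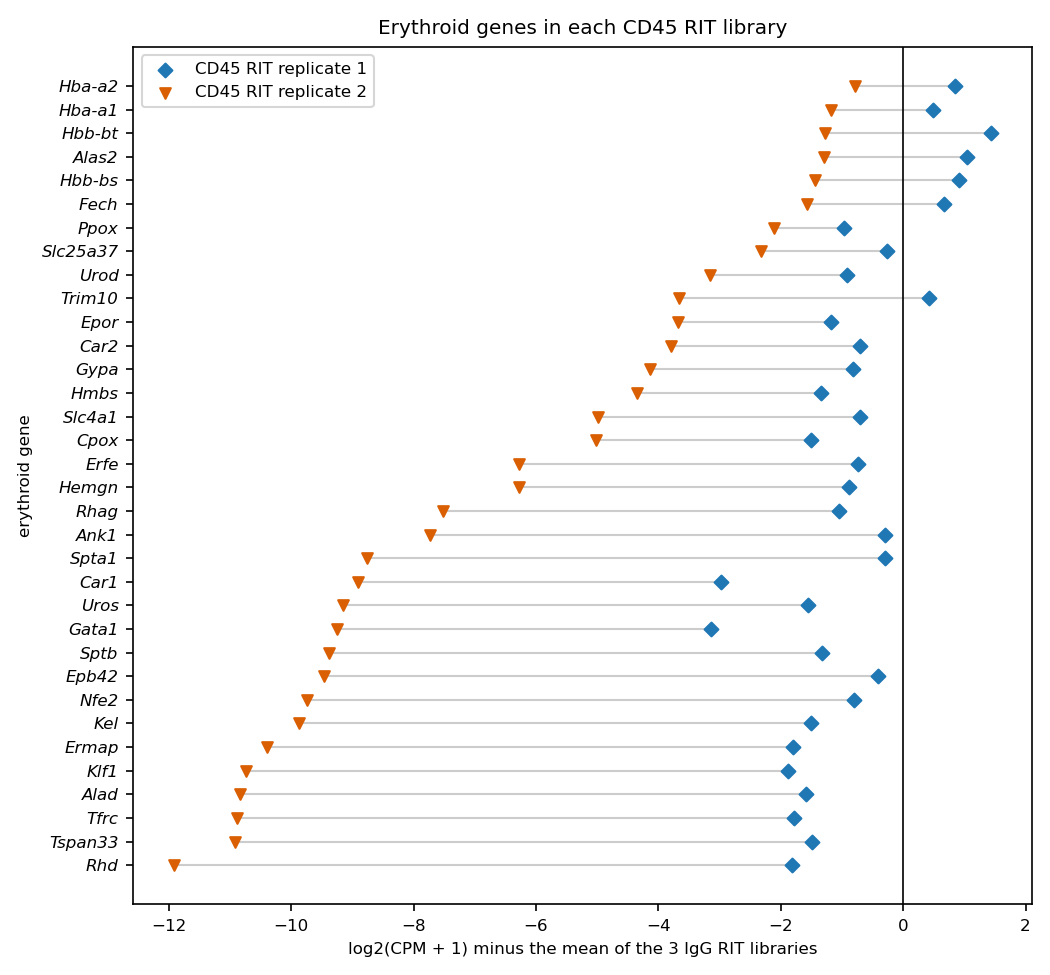
Difference of log2(CPM + 1) in each CD45 RIT library from the mean of the 3 IgG RIT libraries for 34 erythroid genes, ordered by replicate 2. Replicate 1 runs from Hbb-bt at 1.44 to Gata1 at -3.15, and replicate 2 from Hba-a2 at -0.79 to Rhd at -11.92.

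Genes of DNA replication were lower throughout. Of 38 tested, 28 were lower and 0 higher (median -2.88), and all 38 lay without overlap under the IgG RIT libraries, against 29.6% of all tested genes. The medians were -2.30 in replicate 1 and -4.61 in replicate 2. The ribonucleotide reductase subunit Rrm1 had 18805, 19460 and 15544 counts in IgG RIT and 2102 and 2253 in CD45 RIT libraries (-3.02, SE 0.20, adjusted p 1.68e-06). The helicase genes Mcm7 (13951, 14945 and 15922 against 1961 and 1763, -2.96, SE 0.23, adjusted p 3.91e-06) and Mcm6 (15862, 13743 and 17635 against 4226 and 1657, -2.32, SE 0.39, adjusted p 0.000688) were lower in both libraries by amounts like that. Pole2, a subunit of the leading strand polymerase, had 644, 762 and 916 against 0 and 0, at least 251-fold lower (adjusted p 5.91e-07). The primase gene Prim2 had 2455, 3116 and 1968 against 7 and 1, and the helicase factor gene Gins1 1202, 1364 and 1579 against 11 and 1. All 28 calls stayed when either CD45 RIT library was left out, 16 with the 5 RIT libraries alone and 24 with quality weights. The replication list summed to 2854 and 923 CPM after CD45 RIT, to 13804 to 14267 CPM after IgG RIT and to 9773 to 11724 CPM in untreated libraries.

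Mitosis and spindle genes gave 28 lower and 0 higher of 40 (median -2.39), and 39 of the 40 did not overlap. Cyclin A2 (Ccna2) had 22533, 20752 and 24151 counts against 2936 and 1892 (-3.16, SE 0.37, adjusted p 6.62e-05). Survivin (Birc5) had 26690, 31124 and 31922 against 7170 and 644 (-2.77, SE 0.80, adjusted p 0.0173), and the ubiquitin enzyme gene Ube2c 22942, 27129 and 29824 against 11930 and 3112 (-1.69, SE 0.60, adjusted p 0.0426). The proliferation marker Mki67 was lower without overlap and was not called, and its 2 CD45 RIT libraries lay far apart (38065, 38558 and 34246 against 11121 and 9, adjusted p 0.185). The untreated libraries lay at 285 to 447 CPM of Mki67 and the IgG RIT libraries at 1975 ± 208 CPM (SD, n = 3). CD45 RIT replicate 1 lay at 678 CPM, above the untreated range, and replicate 2, with 9 counts, far under it. The list as a whole summed to 4011 and 1595 CPM after CD45 RIT, under both IgG RIT (16295 to 17044 CPM) and untreated libraries (6228 to 8586 CPM).

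Replication and mitosis genes carry known promoter elements, which were counted in the same 250 bases. The letters GCGGGAA or GCGCGAA on either strand, a form of the E2F site, stood in 1643 of 32851 promoters (5%) and in the promoters of 12 of 30 replication genes, 7 of 21 among those called lower and 5 of 9 among those not called. The letters TTTGAA on either strand, a form of the cell cycle homology region, stood in 5252 promoters (16%) and in those of 11 of 32 mitosis genes, 10 of 23 among those called lower and 1 of 9 among those not called. The sequences of 2 helicase genes that were lower in both libraries are given with the E2F letters in capitals, in the same form as above.
Mcm6 (chr1:128359769-128359848, - strand): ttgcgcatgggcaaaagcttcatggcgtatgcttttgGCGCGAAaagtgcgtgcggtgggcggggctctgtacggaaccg
Mcm7 (chr5:138172006-138172085, - strand): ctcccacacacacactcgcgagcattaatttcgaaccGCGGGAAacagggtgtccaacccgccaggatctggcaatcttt
The second gene has 2 promoters in RefSeq, of which the upstream one is shown.

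**Figure D4:**
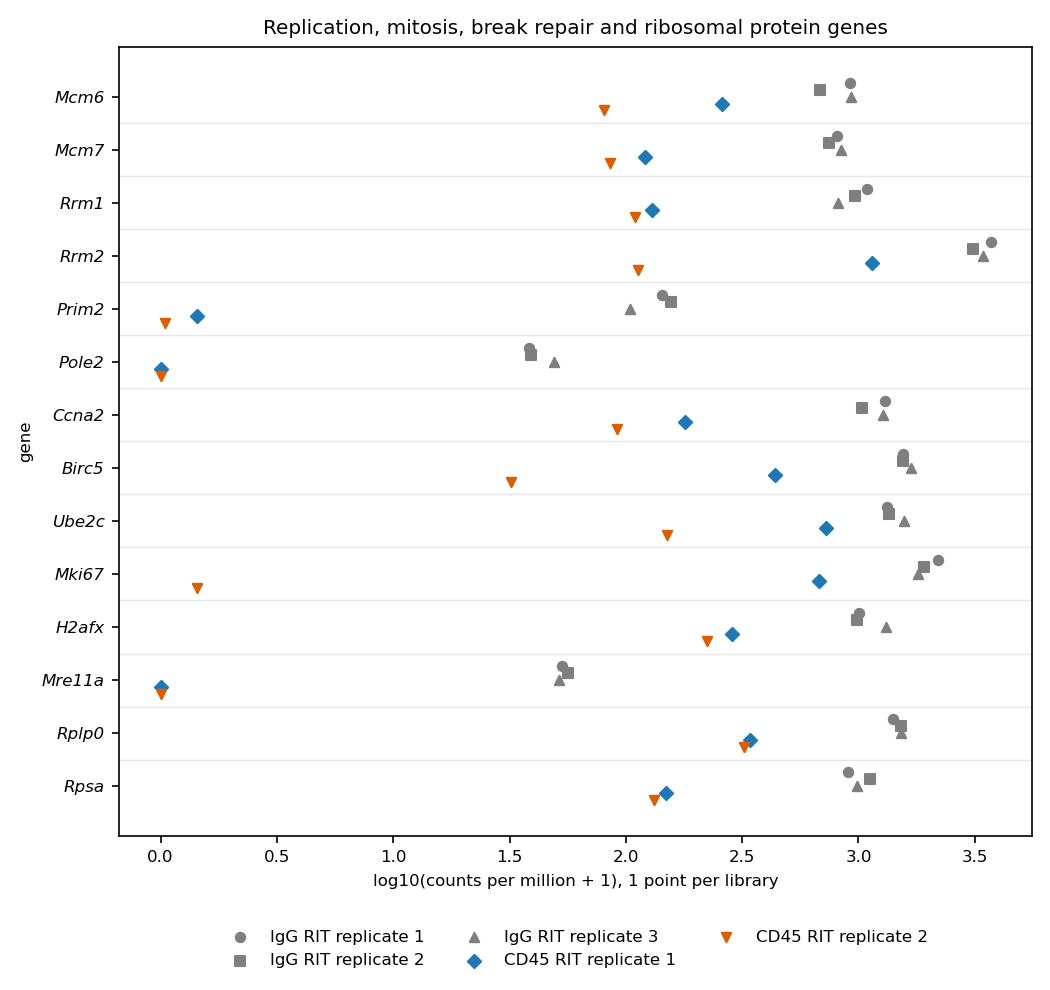
Level of 14 genes of replication, mitosis, break repair and the ribosome in each of the 5 RIT libraries, as log10(CPM + 1). The CD45 RIT libraries lie under the IgG RIT libraries for each gene, close together for Rrm1, H2afx and the ribosomal protein genes and far apart for Mki67, Rrm2 and Birc5.

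Break repair and Fanconi genes were lower in part. Of 43 tested, 18 were lower and 1 higher (median -1.99). On the log2(CPM + 1) scale the medians were -1.22 in replicate 1 and -4.32 in replicate 2. H2afx, whose histone is phosphorylated at breaks, had 17376, 19763 and 25018 counts against 4680 and 4639 (-2.12, SE 0.34, adjusted p 0.000595). Mre11a, the nuclease that first binds broken ends, had 905, 1108 and 958 against 0 and 0, at least 322-fold lower (adjusted p 1.64e-06). Fancm had 243, 703 and 639 against 0 and 0, at least 168-fold lower (adjusted p 4.97e-05). Parp1, which senses single strand breaks, did not differ beyond the spread (2259, 1452 and 1978 against 1310 and 3221, adjusted p 0.755). Mre11a and Fancm were thus not detected in either CD45 RIT library, while H2afx was detected in both at a like, lower level. The calls of Mre11a and Fancm were lost with quality weights, which kept 5 of the 18 lower calls. The 5 RIT libraries alone kept 9.

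Ribosomal protein genes were lower by like amounts in the 2 CD45 RIT libraries. Of 39 tested, 38 were lower and 0 higher (median -1.80), and the medians of the libraries were -1.97 and -1.64. Rpsa had 15560, 22494 and 18773 counts against 2428 and 2717. Its mean was 1003 ± 111 CPM (SD, n = 3) after IgG RIT and 139 ± 12.3 CPM (SD, n = 2) after CD45 RIT, a change of -2.85 in log2 (SE 0.28, adjusted p 1.99e-05). Rplp0 had 24404, 30442 and 28928 against 5584 and 6694 (-2.16, SE 0.25, adjusted p 5e-05). Rpl4 was nearest to IgG RIT among the named members (20731, 23311 and 22791 against 4966 and 14184, -1.27). The untreated libraries lay at 555 to 945 CPM for Rpsa, so CD45 RIT was under both. The list as a whole summed to 3515 and 4825 CPM after CD45 RIT and 14948 to 18914 CPM after IgG RIT. Untreated libraries summed to 20158 to 31139 CPM, so for the list IgG RIT lay under them too. All 38 calls stayed when either CD45 RIT library was left out, 31 with the 5 RIT libraries alone and 7 with quality weights. Ribosomal protein genes have many processed pseudogenes, and 614 of 3760 lower calls were processed pseudogenes against 144 of 4348 higher calls; how shared reads were assigned is not given in the sources used here.

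Respiratory chain genes were lower in part. Of 33 tested, 14 were lower, 0 higher and 19 not called (median -0.58). Cox5b had 5348, 7176 and 6435 counts against 1828 and 2216 (-1.62, SE 0.21, adjusted p 0.0001), and Atp5b 37798, 39460 and 39803 against 27345 and 22636 (-0.60, SE 0.20, adjusted p 0.0352). The mitochondrially encoded genes mt-Nd1 (29096, 34960 and 28342 against 18114 and 44475) and mt-Cytb (35968, 38326 and 31654 against 27329 and 66020) were not called. With the 5 RIT libraries alone 3 of the 14 calls stayed. Of 30 antioxidant genes 13 were higher and 4 lower (median 0.37). The secreted enzyme genes Gpx3 (3403, 2954 and 4563 against 65596 and 110832, 4.58, SE 0.77, adjusted p 0.000734) and Sod3 (88, 53 and 70 against 2286 and 5553, 5.74, SE 0.53, adjusted p 1.28e-05) were higher, as was the cytosolic transferase gene Gstm2 (32, 56 and 73 against 2709 and 5842, 6.30, SE 0.58, adjusted p 1.32e-05). Gpx1 (274351, 309072 and 303935 against 231553 and 31584) and Prdx2 (97263, 120609 and 116915 against 54083 and 10111), both abundant in red cells, were not called. Prdx2 was called lower with no scaling factors, DESeq2 or quality weights, and without TBI replicate 6 (edgeR adjusted p 0.0341). Its log2 fold change was -1.65 in the full fit, -3.61 without CD45 RIT replicate 1 and -1.07 without replicate 2.

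Among called genes without overlap and with a mean of at least 3 log2 CPM over the 5 libraries, predicted genes and pseudogenes aside, the 10 largest rises were Fabp4, Car3, Iigp1, Slc5a3, Il34, Lamb2, Fzd1, Ski, Gas6 and Cdh2. Beyond those described, Iigp1, an interferon-gamma induced GTPase, had 25, 64 and 29 counts against 11337 and 8920 (8.09, SE 0.67, adjusted p 7.16e-06). Slc5a3, the myo-inositol transporter, had 8, 5 and 56 against 5537 and 3849 (7.74, SE 1.23, adjusted p 0.0005). Il34, a ligand of the Csf1 receptor, had 73, 0 and 38 against 7778 and 7273 (7.64, SE 2.04, adjusted p 0.0118). The Wnt receptor gene Fzd1 had 38, 0 and 127 against 7179 and 11009, the laminin chain gene Lamb2 33, 2 and 47 against 1650 and 8744, the TGF-beta repressor gene Ski 36, 15 and 17 against 1124 and 6913, and N-cadherin (Cdh2) 34, 78 and 22 against 2740 and 10143. In these 4 replicate 2 was the higher library, and in Iigp1, Slc5a3 and Il34 replicate 1 was.

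Under the same limits, which leave out genes of lower mean level such as Pole2 and Mre11a, the 10 largest falls were Mpo, Dtl, Prim2, Kif20b, Xk, Cenpi, Gins1, Pkhd1l1, Rmnd5a and Aspm. Dtl, which marks replication factors for destruction in S phase, had 3079, 3536 and 2884 counts against 2 and 3 (169 ± 14.8 CPM in IgG RIT, SD, n = 3), a pooled ratio of 1253 (95% Poisson interval 537 to 3859.7), with an adjusted p of 9.86e-08. The mitotic kinesin gene Kif20b had 2119, 2365 and 1699 against 12 and 0, the kinetochore gene Cenpi 1504, 2224 and 1699 against 13 and 0, and the spindle pole gene Aspm 2813, 3851 and 2894 against 62 and 1. Xk, a red cell membrane protein, had 2660, 2026 and 1603 against 13 and 0. Of these 10 genes, Kif20b, Xk, Cenpi and Pkhd1l1 were at 0 in replicate 2 and at 12 to 15 counts in replicate 1.

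The 2 CD45 RIT libraries also differed from each other in single genes by more than any list did. Among tested genes, 241 had over 1000 counts in replicate 1 and at most 3 in replicate 2, and 145 had the reverse. With a single library on each side these differences have no replicate check. At a mean of at least 3 log2 CPM, the 6 genes with the highest ratio of CPM + 1 in replicate 1 to replicate 2 were Rhd, Tspan33, Slc43a1, Nt5c3, Alad and Cldn13. Slc43a1, an amino acid transporter, had 11179 and 1 counts, and Cldn13, a claudin of red cell precursors, 10651 and 2; both were between 21107 and 35330 in IgG RIT. The 6 with the highest such ratio of replicate 2 to 1 were Vps50, Dntt, Zfp143, Ppp2r3c, Mrps27 and Tbc1d22a. Vps50, a subunit of an endosomal recycling complex, had 78 and 62118 counts, against 355, 360 and 284 in IgG RIT, and was called (6.39, adjusted p 0.00458). The zinc finger factor gene Zfp143 had 0 and 3470 against 739, 839 and 878, and Dntt, which adds bases to antibody gene joins, 0 and 4074 against 406, 386 and 1210; neither was called. Of all called genes, 447 higher and 419 lower had 1 CD45 RIT library at or under 3 counts.

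Calls were followed through all settings. Of the 4348 higher genes 1044, and of the 3760 lower genes 137, were called in the same direction in every setting tried. Leaving out CD45 RIT replicate 2 kept 2897 of the higher and 2806 of the lower calls, and leaving out replicate 1 kept 3775 and 3155; in these fits the lone CD45 RIT library is assumed to vary like the libraries of the other groups. By list, the calls kept in every setting were 16 of 18 for reticular stroma, 10 of 16 for lipid and adipocyte genes, 10 of 11 for complement, 19 of 33 for matrix glycoproteins, 15 of 28 for replication, 10 of 28 for mitosis, 6 of 38 for the ribosome, 0 of 10 for neutrophils and 0 of 6 for erythroid genes.

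**Figure D5:**
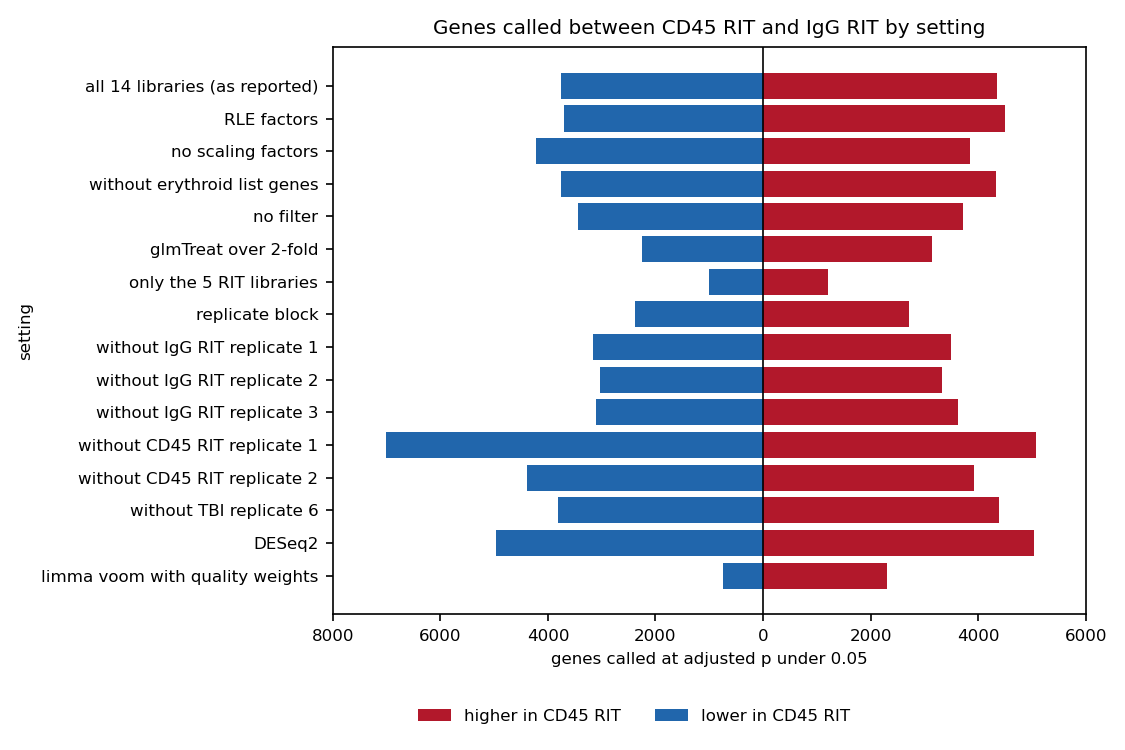
Number of genes called between CD45 RIT and IgG RIT at an adjusted p under 0.05 in each setting, lower genes to the left of 0 and higher genes to the right. The fit with the 5 RIT libraries alone gives 1212 higher and 1005 lower, quality weights give 2312 and 752, and leaving out CD45 RIT replicate 1 gives the most lower genes (7014).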

How the data were processed

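RNA was sequenced from sorted marrow cells. Unnormalized counts of 55335 genes were deposited in a single table. The submitters' processing notes name STAR 2.7.7a, FastQC 0.11.9 and edgeR 3.36.0, and as genome build hg38, although the samples are from mouse. The coordinates of the deposited table matched GENCODE M21 (GRCm38) for all 54587 genes with a shared identifier, so they are given on GRCm38. The counter, its strand setting and its treatment of reads shared between genes are not given in the sources used here, so overlapping and near-identical genes are uncertain.

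The analysis used edgeR 4.0.16 under R 4.3.3. Counts were filtered with filterByExpr (minimum count 10, minimum total 15), scaled with TMM factors and fitted with glmQLFit over all 14 libraries with 1 coefficient per group. CD45 RIT against IgG RIT was tested with glmQLFTest, and an adjusted p (Benjamini-Hochberg over all tested genes) under 0.05 was called. CPM of single genes used the scaled library size, and list sums the total count. A library at or under 3 counts was taken as at the floor: a gene at 0 counts in a whole group has its fold given as a bound against 3 counts per library, and a gene with 1 to 3 counts as a ratio of pooled counts with an exact Poisson 95% interval. The fitting steps were run on simulated counts in which all groups had the same spread. That run does not check calls where the CD45 RIT libraries vary more than the others.

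The gene lists and the rule for naming genes were chosen with earlier results of these data known. Named genes were the 10 largest rises and 10 largest falls among called genes without overlap at a mean of at least 3 log2 CPM, up to 4 genes per list by level and up to 3 by change, Cdh5, Pecam1, Ptprc, Cdkn1a, Mdm2 and Ccng1, and the 6 genes in each direction that differed most between the 2 CD45 RIT libraries. Kitl, Lepr, Gbp2, Bst2, Csf1r, Adgre1, Il6, Cdkn2a, Alas2, Tfrc, Klf1, Ednra and Runx1t1 fall outside this rule and were chosen after their values were seen. Of the listed genes, Ctgf, Cyr61 and Ahsp did not match a name in the table. Promoter sequences came from RefSeq (GRCm38.p6).

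Alternatives were RLE factors, no scaling factors, leaving out erythroid genes, no filter, a test against a 2-fold change (glmTreat), only the 5 RIT libraries, the replicate number as a block, leaving out each RIT library, leaving out TBI replicate 6 (chosen after seeing the data), DESeq2 1.42.0 and limma 3.58.1 voom with quality weights.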

Additional observations from a re-analysis of the deposited data

Results flagged for a closer look

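The summed level of 9 of 60 list sums (30 gene lists in the untreated and in the TBI libraries) lay apart from its group in 1 library, whose distance to its nearest neighbour took up most of the group's range. Chance marks about 1 in 20 groups in this way. In untreated replicate 3 the pan-haematopoietic sum was 5086.5 CPM, where the other 3 libraries lay at 4525 to 4595 CPM, and the B lineage sum 3374 CPM, against 1161 to 1464 CPM.

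The other 7 were in TBI replicate 6. The remaining 4 TBI libraries are given as a range after each value. The erythroid sum was 219120 CPM against 45238 to 69298 CPM, its antioxidant sum 24640 CPM against 10770 to 12764 CPM, its macrophage sum 2498 CPM against 1139 to 1533 CPM, its megakaryocyte and platelet sum 951 CPM against 392 to 472 CPM and its complement sum 352 CPM against 180.5 to 205 CPM. Its endothelial sum was 89.7 CPM against 188 to 217 CPM, and its TGF-beta and BMP sum 139.8 CPM against 349.6 to 407 CPM. This library is in neither compared group and entered through the gene filter, the scaling factors and the estimate of the spread. Without it 21446 genes were tested, against 21509 with it. The median log2 fold change was -0.123 without it and -0.128 with it. The groups compared here have 3 and 2 libraries and were too small for this check.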

How the results depend on the processing

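The 4348 higher and 3760 lower calls stayed within 1.5 times these counts with RLE factors, no scaling factors, no filter, DESeq2 and without erythroid genes. A test against a 2-fold change gave 2257 lower genes. The 5 RIT libraries alone gave 1212 higher and 1005 lower, and voom with quality weights 2312 and 752. The replicate number as a block gave 2715 and 2383. Deviations of same-numbered libraries from their group means correlated at 0.0146 and 0.000802. With 2 CD45 RIT libraries these deviations mirror each other, so the correlations cannot show whether the numbers pair the libraries. Leaving out 1 library gave 3331 to 5071 higher and 3028 to 7014 lower genes. DESeq2 left 369 adjusted p values as NA.

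Leaving out 1 library turned the sign of the log2 fold change of 27 of 158 tested genes named in the text. Of these, 15 were called neither in the full fit nor in the fit that turned them. Of the other 12, those turned without CD45 RIT replicate 2 ranged from -12.90 to 2.46 in Dntt, -3.69 to 10.06 in Flt4, -2.32 to 10.80 in Kdr, -11.43 to 1.503 in Kit, -11.73 to 2.86 in Mrps27, -9.19 to 2.13 in Ppp2r3c, -7.53 to 1.60 in Ptprc, -11.99 to 2.45 in Tbc1d22a, -2.13 to 7.39 in Vps50 and -13.21 to 1.93 in Zfp143. Those turned without replicate 1 ranged from -12.23 to 2.08 in Itga2b and -3.61 to 10.76 in Mertk. Where the remaining library is at 0 counts these fitted values depend on the prior count and are no bound. Of the 158 genes, 32 lost their call with the 5 RIT libraries alone, 33 with quality weights and 19 with the block. With 2 libraries in 1 group, and 19.1% of genes that are well detected in IgG RIT at the floor in 1 of them, the depth does not show that a gene at 0 counts in a single library was absent there.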
